A study of Drosophila melanogaster with 12 samples.

Results

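Wild-type Elav, a neuronal RNA-binding protein of Drosophila melanogaster, was introduced by transfection into S2R+ cells, an established fly line with hemocyte-like properties, and the mRNA 3′ ends were sequenced beside those of cells with no treatment. Described here are the 2 libraries labelled ElavWT against the 2 libraries of untreated S2R+ cells, compared within replicate number over all genes whose deposited CPM (read counts scaled to a common total) averaged 1 or more across these 4 libraries. The rule keeps 8771 of the 13777 genes in the deposited table and leaves 5006 below it; the gene just inside it had a mean of 1.00 CPM and the gene just outside 0.995 CPM. Of the 8771 genes, 8466 are annotated as protein coding. Transfected cells received wild-type Elav with Effectene, a lipid reagent. The labels name no vector, promoter, dose or time for the construct, and do not say whether the untreated cells went through a mock transfection, so the effect of Elav and that of transfection cannot be told apart in this comparison. Of 12 libraries in the series, 8 were used: 2 each of untreated, ElavWT, FneWT and Rbp9WT cells, the last pair of groups having received the wild-type form of the related proteins Fne and Rbp9. The remaining 4, of RRM mutant versions, are not analysed here.

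Elav is the founding member of the ELAV/Hu family, whose members bind U-rich stretches of pre-mRNA through RNA recognition motifs. In fly neurons Elav steers alternative splicing, as of ewg and Nrg, and lets transcription run past proximal poly(A) sites, which gives neuronal mRNAs their extended 3′ UTRs. Fne and Rbp9 share much of that activity. S2R+ cells are not neuronal, and most neuronal genes are little transcribed in them. The deposited values give 1 level per gene, so that a change in level can be read from them and a change of poly(A) site within a gene cannot.

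The 4 libraries held between 4694825 and 14391952 reads, so that 1 read was worth 0.0695 and 0.147 CPM in untreated replicates 1 and 2, and 0.141 and 0.213 CPM in ElavWT replicates 1 and 2. The replicate numbers marked a difference that both groups shared: genes named as rRNA took 2.91% of the reads in untreated and 5.91% in ElavWT replicate 1, against 20.1% and 18.0% in replicate 2. Among the hemocyte markers, srp lay at 73.6 and 53.8 CPM in untreated cells and Pxn at 181 and 90.0 CPM, while Hml lay at 0.417 and 1.91 CPM and NimC1 and PPO1 had no read in any of the 4 libraries, so the hemocyte label rests on part of its markers. The labels do not state that replicates 1 and 2 were separate cultures, and the p-values thus speak only of the spread among these libraries, part or all of which may be technical.

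The gene introduced was looked at first. elav lay at 24.9 and 37.3 CPM in untreated cells and at 29.2 and 26.6 CPM in the libraries labelled ElavWT (replicates 1 and 2, as in every list of levels below). The groups overlapped, and the log2 change was -0.35 ± 0.28 (SE, n = 2 per group; limma with Benjamini-Hochberg adjustment, adjusted p = 0.429). A 3′ tag counts a construct only where the construct carries the counted end of the gene, which the labels do not give, so this level alone checks neither the label nor the transfection. In the other transfected cells the gene introduced was above its untreated level, with Rbp9 at 713 and 58.8 CPM in Rbp9WT cells and fne at 97.4 and 48 CPM in FneWT cells. Neither of these family members passed between ElavWT and untreated cells: fne was at 6.67 and 1.91 CPM in untreated and 49.8 and 4.47 CPM in ElavWT cells (1.63 ± 1.22, adjusted p = 0.463 in the fit to 8 libraries, but 0.0161 in that to the 4 libraries compared), and Rbp9 at 3.34 and 2.35 against 6.20 and 2.34 CPM (0.18 ± 0.65, adjusted p = 0.879). The fne level was high in ElavWT replicate 1 and near the untreated range in replicate 2.

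Of the 8771 genes tested, 948 (10.8%) differed between ElavWT and untreated cells at an adjusted p under 0.05, 688 (7.84%) higher and 260 (2.96%) lower. The test was limma on log2(CPM after median-ratio scaling + 1), fitted to the 8 libraries with group and replicate number as terms; a change of 1 on this scale is 2-fold, and the added 1 CPM understates the change of little-expressed genes. Genes that rose did so by a median of 1.73 (range 0.83 to 4.96), from a median level of 2.13 to 14.5 CPM. Those that fell did so from a median of 62.7 to 32.6 CPM, by a median of 1.17. The rises were thus mostly of genes with little RNA in untreated cells, and the falls of moderately expressed ones. Together the genes that rose took 0.795% and 0.679% of all reads in untreated and 4.59% and 1.95% in ElavWT replicates 1 and 2, and those that fell went from 3.34% and 2.30% to 1.31% and 1.36%. In a bulk sample, more cells with a transcript and more transcript per cell cannot be told apart.

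The replicate number carried these calls. Without it as a term, limma passed 0 genes (617 at an unadjusted p under 0.05) and edgeR's quasi-likelihood test on recovered reads passed 0 (753 unadjusted), while DESeq2 passed 265, 249 of them higher. With it, edgeR passed 1340 genes and DESeq2 1289. Both ElavWT libraries lay above both untreated libraries in 1958 genes (22.3%) and below them in 666 (7.59%), and these genes include 598 of the 688 that rose and 177 of the 260 that fell. The sign of the change was shared by the replicates in each of the 948 genes. A fit with the replicate number as a term favours such genes, so this is no separate evidence for the calls. Of all genes tested, 32.0% were higher in both replicates and 31.8% were lower in both. The larger move was in replicate 1 for 569 of the 688 genes that rose and 222 of the 260 that fell. Leaving out 1 ElavWT or untreated library at a time, 216 of the 688 higher calls and 14 of the 260 lower calls were kept in all 4 fits. A larger share of the rises than of the falls was thus kept. The scaling moved the balance: 72.6% of the calls were rises here, 89.7% with the CPM as deposited, which shifts the median change of all genes by 0.23, 89.8% with the CPM rescaled to the total without rRNA-named genes, and 57.5% with TMM factors. Of the tested genes, 881 had an untreated mean under 1 CPM, and 256 of the 688 that rose were among these; such a gene enters the test only where ElavWT cells have it.

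**Figure D1:**
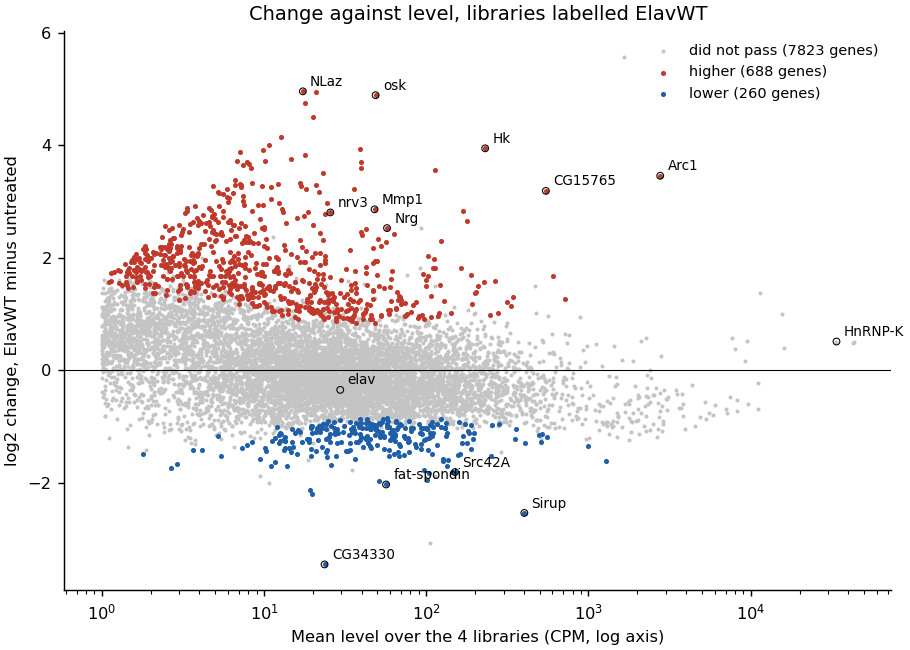
Log2 change of ElavWT minus untreated cells (vertical axis) against the mean level over the 4 libraries in CPM (horizontal log axis), 1 point per gene. The 688 genes that rose (red) lie mainly at low levels and reach 4.96, the 260 that fell (blue) lie at middle levels, and elav is near 0.

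The largest rise was that of NLaz, which encodes Neural Lazarillo, a secreted lipocalin related to vertebrate apolipoprotein D (chromosome 2L, 1359837 to 1361821, minus strand, dm6 coordinates). It went from 0.139 and 0 CPM to 47.8 and 21.5 CPM, a log2 change of 4.96 ± 0.36 (adjusted p = 2.25e-07). From 2 reads over both untreated libraries to 440 over both ElavWT libraries, the ratio is 396 with a 95% exact counting interval of 109 to 3277, which covers counting error only. Cht9, a chitinase gene, had 1 read in untreated cells and rose to 71.0 and 13 CPM (4.94 ± 0.41). Tsp42Eg, a tetraspanin gene, had no read in either untreated library and lay at 18.2 and 10.2 CPM in ElavWT cells, at least 106-fold higher against a floor of 3 reads over the untreated group. These genes were at the limit of detection before and well above it after, in both replicates.

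osk, the determinant of the germ plasm in the oocyte (3R, 8935126 to 8938395, plus strand), had reads in both untreated libraries, at 1.88 and 1.17 CPM, and rose to 149 and 43.0 CPM (4.89 ± 0.31, adjusted p = 5.4e-08). Another annotated gene overlaps it on the same strand, and reads of the pair may have been split between them. Hk encodes Hyperkinetic, the β subunit of the Shaker potassium channel (X, 10233347 to 10263485, minus strand). Its level went from 16.1 and 33.2 CPM to 499.7 and 375 CPM (3.94 ± 0.33, adjusted p = 9.51e-07). Teh2, for an auxiliary subunit of the para sodium channel, rose from 3.13 and 0 to 53.6 and 14.7 CPM (3.82 ± 0.32). Hk was already present in untreated cells, unlike most of the genes with changes of this size. Best4, of the bestrophin chloride channels, went from 0.278 and 0 to 30.7 and 8.31 CPM. r-cup, a gene of late spermatogenesis, went from 0.486 and 0 to 39.6 and 10.7 CPM. osy, for an ABC transporter, rose by 3.93 ± 0.29 to 121 and 29.2 CPM, and the uncharacterised genes CG6044, CG14490 and CG18568 by 4.74, 4.49 and 4.01. Of these genes CG6044 and Teh2 also overlap another annotated gene on their strand, and Hk, Cht9, osy, Best4 and CG14490 one on the opposite strand, whose reads cannot be told apart unless counting used strand. All 12 genes passed under all 3 other scalings of the CPM. They were named as the largest rises among passing genes whose groups do not overlap, so their passing again is no separate evidence. Those with an untreated mean under 1 CPM entered the test only through their ElavWT level.

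Of genes that averaged 100 CPM or more, 34 rose and 54 fell. In the 958 with 100 to 300 CPM 2.82% rose and 4.59% fell, and in the 402 over 300 CPM 1.74% and 2.49%. Over all genes tested the shares were 7.84% and 2.96%. Arc1, which descends from a retrotransposon Gag gene and whose protein packs RNA into capsids at synapses (2R, 14357927 to 14360297, minus strand), rose from 339 and 404 CPM to 7155 and 3181 CPM (3.45 ± 0.42, adjusted p = 3.55e-05). bab1, for a BTB-domain transcription factor of limb and ovary patterning, rose from 11.3 and 14.4 to 319 and 111 CPM (3.56 ± 0.37). Atf3, a bZIP transcription factor of stress and metabolic responses, went from 39.3 and 25.0 to 461 and 154 CPM (2.82 ± 0.30). Each was several-fold higher in both replicates, with the higher ElavWT level in replicate 1. CG15765 rose from 105 and 21.7 to 1919 and 140.2 CPM (3.19 ± 0.32), and the long noncoding RNA lncRNA:CR44833 from 39.1 and 35.4 to 470.1 and 166 CPM (2.65 ± 0.31). Both of them overlap other annotated genes. Every one of these 5 calls, and that of Hk, was kept under the 3 other scalings. They were named as the largest rises at this level among passing genes whose groups do not overlap.

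**Figure D2:**
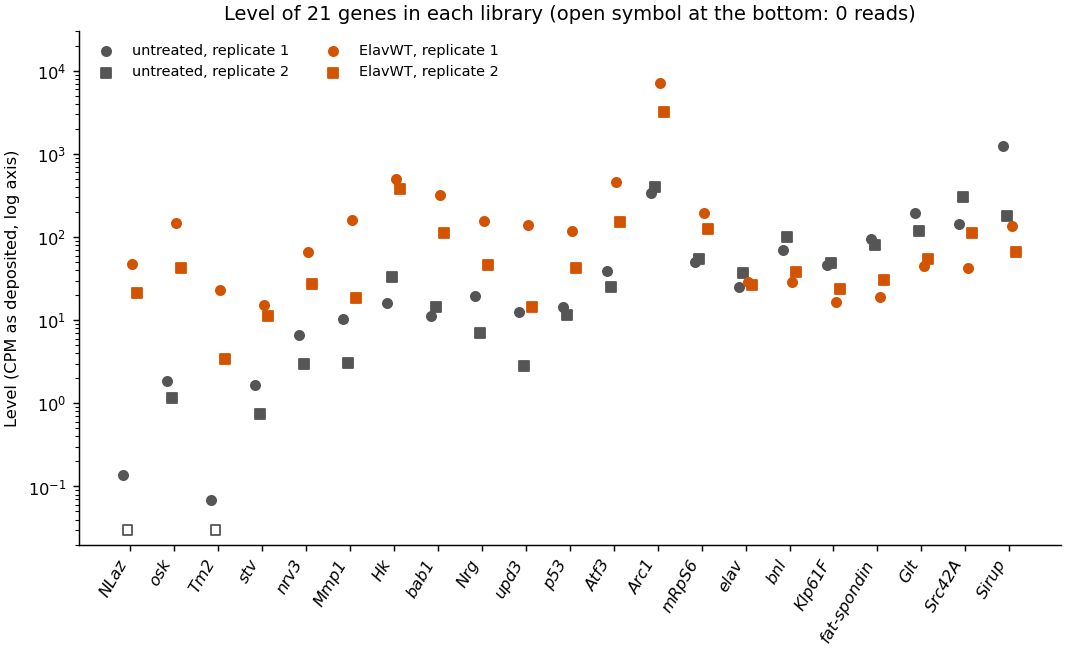
Level of 21 genes in each of the 4 libraries (deposited CPM, log axis; open symbols at the bottom mark 0 reads), untreated in grey and ElavWT in orange, circles for replicate 1 and squares for replicate 2. Both ElavWT symbols lie above both untreated symbols for those of the 21 that rose, elav overlaps, and Arc1 reaches 7155 CPM. Of all 688 genes that rose, 598 had groups that do not overlap.

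The falls were smaller, and 5 of the 260 exceeded 2 on the log2 scale. fat-spondin, an extracellular matrix gene, went from 95.1 and 81.1 CPM to 19.2 and 30.9 CPM (-2.03 ± 0.29, adjusted p = 0.000198). Glt, which encodes the basement membrane glycoprotein Glutactin, went from 197 and 118 to 44.4 and 55.0 CPM (-1.83 ± 0.30, adjusted p = 0.000681). Src42A, a Src-family tyrosine kinase gene, went from 146 and 302 to 42.7 and 112 CPM (-1.81 ± 0.33, adjusted p = 0.00197). They were named from calls whose groups do not overlap, so both ElavWT libraries lay below both untreated ones by that choice. The same choice named cue, of the LDL receptor family, at 37.8 and 127 against 15.9 and 25.1 CPM (-1.97 ± 0.32). It also named CG3961, at 197 and 236 against 73.3 and 68.6 CPM (-1.82 ± 0.31). These 5 calls were kept in all 4 leave-one-out fits and all 3 scalings.

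Calls of 4 larger falls rested on single libraries. CG34330 had the largest, from 72.5 and 15.7 to 1.13 and 5.11 CPM (-3.45 ± 0.79, adjusted p = 0.0328), and Sirup, for an assembly factor of succinate dehydrogenase, went from 1232 and 179 to 134 and 65.6 CPM (-2.54 ± 0.59, adjusted p = 0.0344). The first had an adjusted p of 0.165 without ElavWT replicate 1 and 0.0573 without untreated replicate 1, the second 0.463 and 0.242 without ElavWT replicate 1 or 2. Dph1, an enzyme of diphthamide synthesis on elongation factor 2, and CG10512 fell by 2.20 and 2.12, with an adjusted p of 0.11 and 0.102 without untreated replicate 1. In all 4 genes untreated replicate 1 was the highest of the libraries.

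Genes on which Elav is known to act, or which have extended 3′ UTRs in neurons, mostly rose where they passed. Of 26 such genes, a list written from knowledge of the family, 10 rose (38.5%, against 7.84% of all genes tested) and 1 fell, with a median log2 change of 0.83, against 0.01 for all tested genes. The counts of this and the lists below depended on single libraries: of 43 lists, 40 had more members called without untreated replicate 2 and 34 had fewer without untreated replicate 1. Nrg, the fly L1-type adhesion molecule and a splicing target of Elav (X, 8517373 to 8555170, plus strand), went from 19.7 and 7.05 CPM to 157 and 45.8 CPM (2.52 ± 0.26, adjusted p = 7.91e-06). Fas2, an NCAM-type adhesion molecule of axon bundles, went from 18.3 and 4.11 to 89.1 and 16.4 CPM (1.79 ± 0.28). Appl, for the fly amyloid precursor protein, rose by 1.57 ± 0.30 from 8.2 and 3.82 to 38.5 and 11.9 CPM, and bol, for an RNA-binding protein of the DAZ family, by 1.56 ± 0.28 from 18.1 and 10.6 to 89.9 and 27.5 CPM. These 4 were the members whose call was kept in every leave-one-out fit; Fas2 overlapped between the groups, with ElavWT replicate 2 just under untreated replicate 1. The others that rose were Antp, ewg, mei-P26, Dscam1, Khc-73 and para, and stai, for the microtubule regulator stathmin, fell. Antp had groups that overlapped, at 4.86 and 0.587 CPM in untreated and 29.9 and 2.13 CPM in ElavWT cells. The number that rose was 5 without ElavWT replicate 1, 4 without untreated replicate 1 and 13 without untreated replicate 2. In replicate 1 the median change of the list was 1.19 and in replicate 2 it was 0.45. Of all tested genes with an annotated 3′ UTR over 3000 bases, 16.4% rose. Of the 26 genes, 0 differed from the mean of FneWT and Rbp9WT, against 0.422% of all genes tested.

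Genes of neuronal membranes followed. Of 23 tested genes for neuronal channels and transmitter receptors 9 rose (39.1%, against 7.84% of all genes tested) and 0 fell. Their median was 1.10 (replicate medians 1.63 and 0.90). nrv3, for the β subunit of the Na,K-ATPase in the nervous system (2L, 21380000 to 21393319, plus strand), went from 6.60 and 2.94 to 66.0 and 27.1 CPM, by 2.81 in replicate 1 and 2.80 in replicate 2 (2.80 ± 0.26, adjusted p = 1.88e-06). The nicotinic acetylcholine receptor subunit genes nAChRbeta1 and nAChRalpha5 both rose by 1.79, to 15.8 and 2.77 CPM and to 23.3 and 15.8 CPM, with ElavWT replicate 2 of the first under untreated replicate 1 (3.13 CPM). Sh, which encodes the Shaker channel that Hk attaches to, went from 19.3 and 3.97 to 83.5 and 13.4 CPM (1.60 ± 0.31), so its groups overlapped. Without untreated replicate 1 the count that rose was 2, and Sh and nAChRalpha5 had adjusted p-values of 0.0659 and 0.0592. In the other 3 leave-one-out fits it was 8 to 14.

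Of 30 genes of axon adhesion and guidance 5 rose (16.7%) and 0 fell (median 0.74): Nrg, Fas2, Dscam4, Ten-a and Dscam1, of which Nrg and Fas2 kept their call in every leave-one-out fit; 2 rose without untreated replicate 1 and 14 without untreated replicate 2. Among 22 genes of synaptic vesicles and active zones 3 rose (13.6%, median 0.43). Beside the shares of these lists, 7.84% of all genes tested rose and 2.96% fell. Nrx-1, the presynaptic adhesion molecule Neurexin, went from 6.18 and 1.76 to 58.5 and 5.11 CPM (1.92 ± 0.34), with groups that overlap, and Snap25, for a SNARE of vesicle fusion, from 32.7 and 17.6 to 144 and 44.3 CPM (1.47 ± 0.27). Rim, for an active zone scaffold, rose by 1.5 ± 0.35 and had an adjusted p of 0.0581 and 0.106 without ElavWT replicate 1 and untreated replicate 1. Of 16 tested neural transcription factors 6 rose (37.5%; median 1.09), among them the eye selector genes ey and toy by 1.93 ± 0.43 and 1.51 ± 0.40, but 1 rose without ElavWT replicate 1 and 1 without untreated replicate 1. Both of these genes lay under 3 CPM in untreated cells and under 16 CPM in ElavWT cells. The groups of Rim, Dscam4 and toy overlapped as well. The summed level of 9 neuronal markers was 103 and 60.5 CPM in untreated and 232 and 78.6 CPM in ElavWT cells, so that the groups overlapped, and the part of these markers in the lists was not tested. Of those markers VAChT, VGlut and Gad1 had no read in replicate 2 of either group. Among genes named in these lists, Nrx-1, Ten-a, Appl, Antp, Sh and nAChRalpha5 are overlapped by other annotated genes on the same strand. Reads of such genes may have been split between them.

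Genes known from other tissues also rose. Beside the shares below, 7.84% of all genes tested rose. Tm2, a muscle tropomyosin gene, had 1 read in untreated cells and lay at 23.0 and 3.41 CPM in ElavWT cells (3.29 ± 0.46, adjusted p = 0.000166), the highest change among 17 tested muscle genes. Of these 4 rose (23.5%; median 0.80), with Mlc2, Prm and sls beside Tm2; without ElavWT replicate 1 and without untreated replicate 1 the count was 1. In the fat body list 3 of 11 rose (27.3%; median 0.91), NLaz, Apoltp and the lipase gene bmm, and NLaz alone passed without ElavWT replicate 1 or untreated replicate 1. In the germline list 2 of 12 rose (16.7%; median 0.29, but -0.15 without untreated replicate 1 and -0.05 without ElavWT replicate 1), osk and spn-E, the latter lost in each of the 4 leave-one-out fits (adjusted p from 0.0635 to 0.277) and with TMM factors (0.0648), and of 8 glial genes 0 passed in limma (2 higher at an unadjusted p under 0.05, 0 in edgeR and DESeq2). The summed muscle markers were at 21.7 and 22.5 CPM in untreated and 122 and 29.0 CPM in ElavWT cells, and the germline markers at 22.0 and 21.3 against 167 and 52 CPM, most of the latter from osk. The 5 fat body markers summed to 1.95 and 5.14 CPM in untreated and 11.8 and 9.16 CPM in ElavWT cells. In all 3 sums both ElavWT libraries lay above both untreated ones. Without osk, however, the germline markers lay at 20.2 and 20.1 CPM in untreated and 18 and 8.95 CPM in ElavWT cells, both lower. The whole muscle list, 24 genes, summed to 373 and 607 CPM in untreated and 668 and 337 CPM in ElavWT cells, which overlap. The groups of its called genes Prm and sls overlapped as well. The sums of the whole fat body list and of the germline list with osk did not overlap. Glial markers summed to 135 and 90.3 against 121 and 75.4 CPM and epithelial markers to 494 and 306 against 454 and 327 CPM, both with groups that overlap. The part of these markers in the lists was not tested. Of the defining markers, Fbp1 of the fat body and vas of the germline had no read in any of the 4 libraries.

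Secreted signals and their regulators moved in both directions. upd3, a cytokine that activates JAK/STAT signalling after damage, rose from 12.6 and 2.79 to 141 and 14.3 CPM (2.51 ± 0.31, adjusted p = 3.97e-05), and its relative upd2 from 3.47 and 1.62 to 23.8 and 6.39 CPM (1.82 ± 0.38, adjusted p = 0.00456, but 0.0933 without ElavWT replicate 1). These were 2 of 12 JAK/STAT genes tested (16.7%, against 7.84% of all genes tested), and 0 fell; the level of the transcription factor gene Stat92E was 85.2 and 117 against 108 and 122 CPM. vn, the neuregulin-like ligand of the EGF receptor, rose from 5.49 and 2.06 to 71.9 and 9.16 CPM (2.43 ± 0.34, adjusted p = 0.000166). bnl, the FGF that guides tracheal branching, fell from 70.2 and 99.7 to 28.9 and 38.6 CPM (-1.53 ± 0.26, adjusted p = 0.00106). Both calls were kept in every leave-one-out fit and scaling. Of 24 genes of EGF, FGF and insulin receptor signalling 4 rose (16.7%) and 1 fell, the receptor gene Egfr among the first (1.76 ± 0.35, 0.0514 without untreated replicate 1). In that list 2 rose without ElavWT replicate 1 and 1 without untreated replicate 1, and without untreated replicate 2, 6 rose and 4 fell. numb, an inhibitor of Notch, rose from 12 and 14.7 to 81.1 and 38.1 CPM (1.77 ± 0.31, adjusted p = 0.00114), 1 of 2 of 13 Notch pathway genes to rise (15.4%). The other, the Notch target E(spl)mgamma-HLH, had no read in untreated cells and lay at 2.82 and 1.92 CPM in ElavWT cells, at least 17.4-fold higher, and missed the threshold without untreated replicate 1 (adjusted p = 0.0794), ElavWT replicate 1 (0.12) or ElavWT replicate 2 (0.0579).

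Of 22 JNK and wound response genes 4 rose and 2 fell (18.2% and 9.09%; median 0.22), of which 1 rose without ElavWT replicate 1 or untreated replicate 1 and 8 without untreated replicate 2. Mmp1, the secreted matrix metalloproteinase that JNK induces at wounds, went from 10.3 and 3.08 to 160.3 and 18.5 CPM (2.86 ± 0.30, adjusted p = 7.91e-06). Gadd45 rose by 1.69 ± 0.36 but had an adjusted p of 0.17 without ElavWT replicate 1 and 0.188 without untreated replicate 1. The groups of Gadd45 overlapped, at 84.6 and 29.1 against 583 and 61.8 CPM. puc, the JNK phosphatase, was at 56.8 and 77.5 against 242 and 93.1 CPM and did not pass (adjusted p = 0.0723). Mmp1 was thus the member of the list that moved far in both replicates. Over all genes tested 7.84% rose and 2.96% fell. p53 rose from 14.2 and 11.6 to 120 and 42.6 CPM (2.17 ± 0.28, adjusted p = 7.85e-05). It was 1 of 3 of 13 apoptosis genes to rise (23.1%), with Buffy and rpr, whose calls were lost without ElavWT replicate 1 (adjusted p = 0.42 and 0.124) and without untreated replicate 1 (0.263 and 0.0638).

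Defence and detoxification genes were counted in small lists, and over all genes tested 7.84% rose and 2.96% fell. Among 9 tested antimicrobial peptide genes 2 rose (22.2%, against 7.84% of all genes tested), the diptericins DptA and DptB. DptA went from 0.208 and 0 CPM (3 reads) to 9.73 and 2.77 CPM (2.51 ± 0.47, adjusted p = 0.00200), a ratio of 49.2 with a 95% exact counting interval of 16.2 to 243. DptB, at 1.60 and 0.441 against 15.8 and 1.70 CPM, missed the threshold without ElavWT replicate 1, untreated replicate 1 or untreated replicate 2 (adjusted p = 0.554, 0.22 and 0.0748). Of 26 genes of immune recognition and NF-κB signalling 3 rose and 3 fell (11.5% each), and none of these 6 calls was kept in all 4 leave-one-out fits. Dcr-2, the Dicer of the siRNA pathway and of antiviral defence, rose from 4.93 and 4.26 to 49.6 and 14.1 CPM (2.11 ± 0.32, adjusted p = 0.000361), 1 of 2 of 22 RNAi genes to rise (9.09%, close to the share of all genes tested). In the list of oxidative stress and detoxification 4 of 20 rose (20%): GstD5 from 0.973 and 0 to 20.3 and 2.77 CPM (2.63 ± 0.44), GstD4 from 0.139 and 0.147 CPM (3 reads) to 3.24 and 3.41 CPM (1.90 ± 0.40), GstS1 and Gclc. GstD5 and GstD4, both glutathione S-transferase genes, kept their calls in the 4 leave-one-out fits, while GstS1 and Gclc had adjusted p-values of 0.135 and 0.254 without ElavWT replicate 1 and 0.208 and 0.188 without untreated replicate 1, and GstS1 also 0.123 without ElavWT replicate 2.

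Genes of the extracellular matrix moved both ways. Of 18 matrix genes 5 fell (27.8%, against 2.96% of all genes tested) and 2 rose, with a median of -0.18 (0.03 with the CPM as deposited). LanB1, for the laminin β chain, went from 269.8 and 109 to 66.1 and 64.5 CPM (-1.61 ± 0.32, adjusted p = 0.00311), and the laminin genes LanA and LanB2 fell by 1.30 and 1.12. Pxn, for the matrix enzyme Peroxidasin, went from 181 and 90.0 to 65.1 and 61.6 CPM (-1.23 ± 0.31). All 3 laminin subunit genes that fell are parts of the same trimer, and fat-spondin completed the 5. trol, for the basement membrane proteoglycan perlecan, rose instead, from 18.5 and 8.81 to 186 and 38.6 CPM (2.42 ± 0.30, adjusted p = 5.46e-05), with 3 annotated genes overlapping it on its strand, and Mmp1 was the other to rise. Without ElavWT replicate 1 or untreated replicate 1, 2 fell and 2 rose, and without untreated replicate 2, 6 fell and 7 rose, so that the larger number of falls depended on these libraries; LanB1 then had an adjusted p of 0.0849 and 0.0704. Of 16 tested hemocyte genes 2 rose and 2 fell: PPO2, a crystal cell prophenoloxidase, at 3.61 and 8.96 against 32.3 and 25.3 CPM (1.92 ± 0.40, 0.112 without untreated replicate 1), and Fer2LCH rose, while Pxn and the growth factor receptor gene Pvr fell. The calls of Fer2LCH, Pxn and Pvr were lost without ElavWT replicate 1 (adjusted p = 0.289, 0.347 and 0.17) or untreated replicate 1 (0.477, 0.155 and 0.12). The rises and the falls were 12.5% each of the 16 hemocyte genes, against 7.84% and 2.96% of all genes tested. The summed level of 13 hemocyte markers was 525 and 528 CPM in untreated and 748 and 452 CPM in ElavWT cells, which overlap.

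Genes of cell division that passed all fell. Of 32 cell cycle and mitosis genes 8 fell (25.0%, against 2.96% of all genes tested) and 0 rose. The median was -0.64, and 25 were lower in both replicates (31.8% of all genes tested were). Klp61F, the kinesin-5 that separates spindle poles, went from 45.7 and 48.6 to 16.8 and 24.1 CPM (-1.41 ± 0.28, adjusted p = 0.00353). aurA, the mitotic kinase Aurora A, fell by 1.45 ± 0.31 from 54.5 and 16 to 18.5 and 7.88 CPM, feo, of the spindle midzone, by 1.41 ± 0.31, and fzy, the Cdc20 activator of the anaphase-promoting complex, by 1.4 ± 0.31. Also called were tum, ncd, Incenp and aurB. None of these 8 calls was kept without untreated replicate 1, when 0 of the 32 passed in limma (7 at an unadjusted p under 0.05) and the adjusted p of Klp61F was 0.0766, while 13 passed without untreated replicate 2. Of 23 DNA replication genes 0 passed in limma's test in either direction (8 lower at an unadjusted p under 0.05; 1 passed in edgeR and 1 in DESeq2), with a median of -0.62 (replicate medians -0.74 and -0.42). Both lists thus had medians below 0 in both replicates, with few genes past the threshold.

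Genes of the translation machinery differed between the replicates. Of 86 tested cytosolic ribosomal protein genes 2 fell (2.33%, against 2.96% of all genes tested), RpL37A (-1.35 ± 0.41) and RpS21 (-1.27 ± 0.39), and 0 rose. With the replicate term 7 passed in edgeR and 32 in DESeq2. The list's median was -1.30 in replicate 1 and -0.17 in replicate 2. Both calls were lost without ElavWT replicate 1 (adjusted p = 0.231 and 0.171), ElavWT replicate 2 (0.06 and 0.0785) or untreated replicate 1 (0.45 and 0.443), and with the CPM as deposited or without rRNA-named genes; without untreated replicate 2, 75 of the list passed as lower. Summed over the list they lay at 236571 and 244359 CPM in untreated cells, and at 115636 and 239341 CPM in ElavWT cells. Of the 4 libraries, ElavWT replicate 1 was the low one. Of 71 mitochondrial ribosomal protein genes 4 fell and 2 rose (replicate medians -0.91 and -0.05), but 0 fell without ElavWT replicate 1 or untreated replicate 1, 16 without ElavWT replicate 2 and 32 without untreated replicate 2. mRpS6 went against the list's median, from 50.9 and 55.1 to 195 and 127 CPM (1.32 ± 0.27, adjusted p = 0.00406, kept in every leave-one-out fit). In shares, 5.63% of the mitochondrial list fell and 2.82% rose, against 2.96% and 7.84% of all genes tested. The same split between replicates was seen in 39 genes of the respiratory chain and ATP synthase (2 fell, 5.13%, medians -0.96 and -0.12). It was also seen in 35 translation factors (2 fell, 5.71%, -0.77 and -0.14) and 32 proteasome genes (medians -0.66 and 0.01). Of the proteasome genes 0 passed in limma, edgeR or DESeq2, and 2 had an unadjusted p under 0.05 in limma. Without untreated replicate 2 the numbers that fell were 19, 14 and 7, and without ElavWT replicate 1 they were 0 in all 3 lists. Genes of the machinery on which Elav acts were also counted: of 15 cleavage and polyadenylation genes 0 passed in limma, edgeR or DESeq2 and 0 had an unadjusted p under 0.05 (median -0.18, but 0.04 with the CPM as deposited), and of 31 splicing factors and hnRNPs Sxl rose by 1.20 ± 0.30 and tra2 and x16 fell by 0.91 ± 0.28 and 1.42 ± 0.29, a share close to the 10.8% of all genes tested. The call of tra2 was lost in each of the 4 leave-one-out fits (adjusted p from 0.0539 to 0.152), and those of x16 and Sxl without ElavWT replicate 1 (0.0884 and 0.231) or untreated replicate 1 (0.0631 and 0.206). Of 29 tubulin and cytoskeleton genes 4 fell (13.8%, against 2.96% of all genes tested) and 0 rose. cher, the fly filamin, went from 140 and 40.4 to 55.8 and 16.8 CPM (-1.49 ± 0.27, adjusted p = 0.00174 in limma's test). The calls of stai, Map60 and betaTub97EF depended on single libraries. That of betaTub97EF was also lost with the CPM as deposited (adjusted p = 0.0504 in limma's test).

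**Figure D3:**
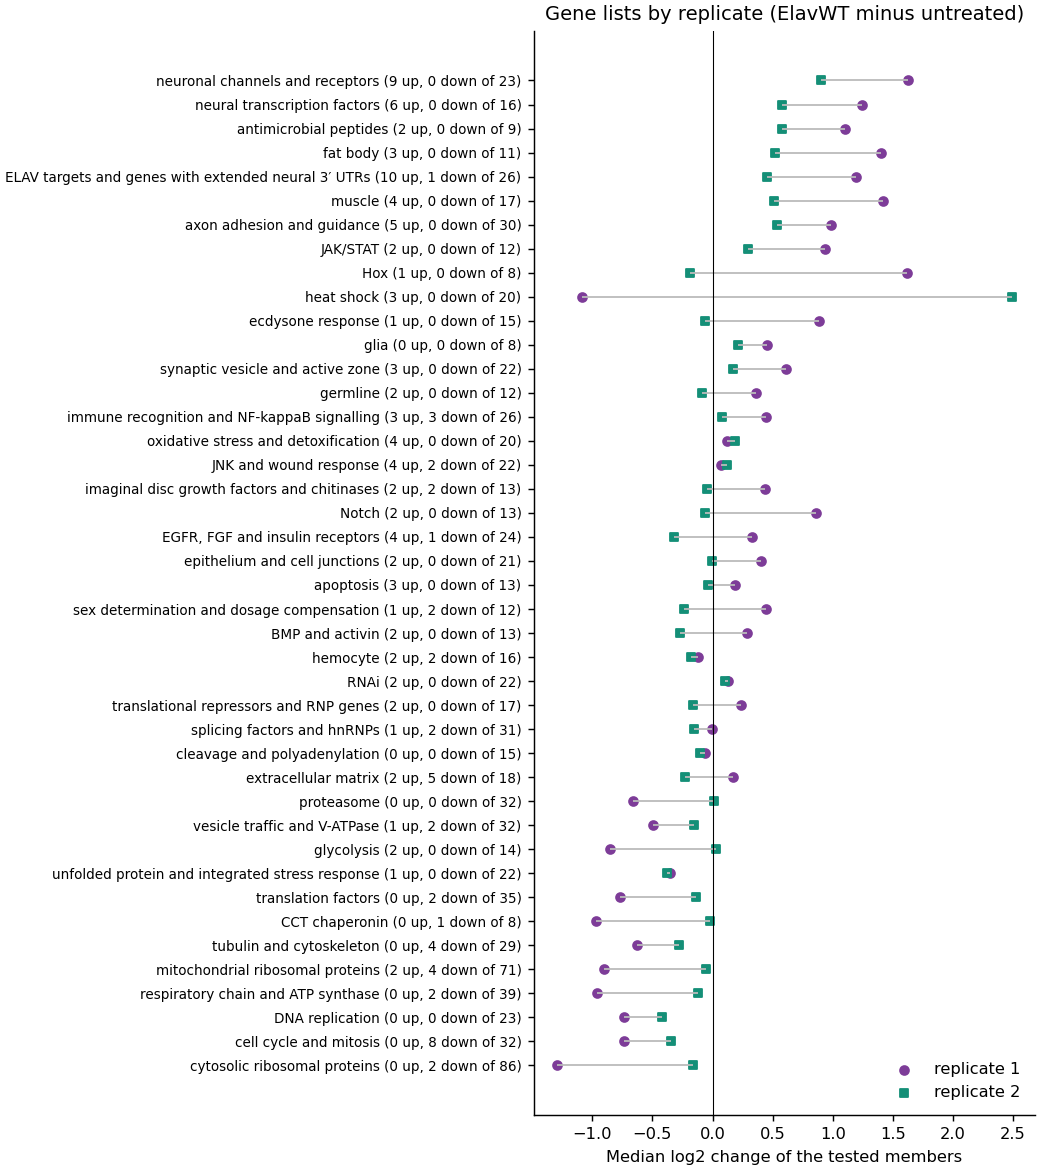
Median log2 change of the tested members of each gene list in replicate 1 (purple circles) and replicate 2 (green squares), ElavWT minus untreated, with the number of members that passed in each direction. Neuronal channels and receptors have medians of 1.63 and 0.90, cytosolic ribosomal proteins of -1.30 and -0.17, and heat shock genes of -1.09 and 2.49.

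The replicates disagreed most in the heat shock genes, whose median change was -1.09 in replicate 1 and 2.49 in replicate 2. Hsp70Ba, an inducible Hsp70 gene with near-identical copies between which reads cannot be assigned with certainty, lay at 199 and 6.46 CPM in untreated and 24.7 and 116 CPM in ElavWT cells. Hsp26, a small heat shock protein gene, lay at 217 and 12.8 against 44.4 and 186 CPM. Untreated replicate 1 and ElavWT replicate 2 were thus the high libraries for both genes, and no direction of the comparison can be read from them (adjusted p = 0.953 and 0.911). Without untreated replicate 1 the log2 changes of Hsp70Ba and Hsp26 were 4.15 and 4.09 (adjusted p = 0.000301 and 0.0478), and without untreated replicate 2 they were -3.56 and -3.04 (0.000287 and 0.0273). Of 20 tested heat shock genes 3 passed as higher (15%, against 7.84% of all genes tested). stv, a BAG-domain partner of Hsp70, went from 1.67 and 0.734 to 15.4 and 11.3 CPM (2.61 ± 0.41, adjusted p = 0.000521 in limma's test). The others were Hsp67Bc (1.87 ± 0.38) and Hsp67Ba (1.57 ± 0.45). The call of Hsp67Ba was lost without ElavWT replicate 1, ElavWT replicate 2 or untreated replicate 1 (adjusted p = 0.124, 0.0574 and 0.235). Without untreated replicate 1, 12 of the 20 passed as higher and 0 as lower, and without untreated replicate 2, 3 passed as higher and 8 as lower. CG13012 showed the same crossing, at 244 and 0.147 against 55.3 and 66.0 CPM. Over all tested genes the SD of the change was 1.11 in replicate 1 and 0.71 in replicate 2, and 3068 genes changed in opposite directions, 35 of them with a mean of at least 10 CPM by 1 or more each way.

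**Figure D4:**
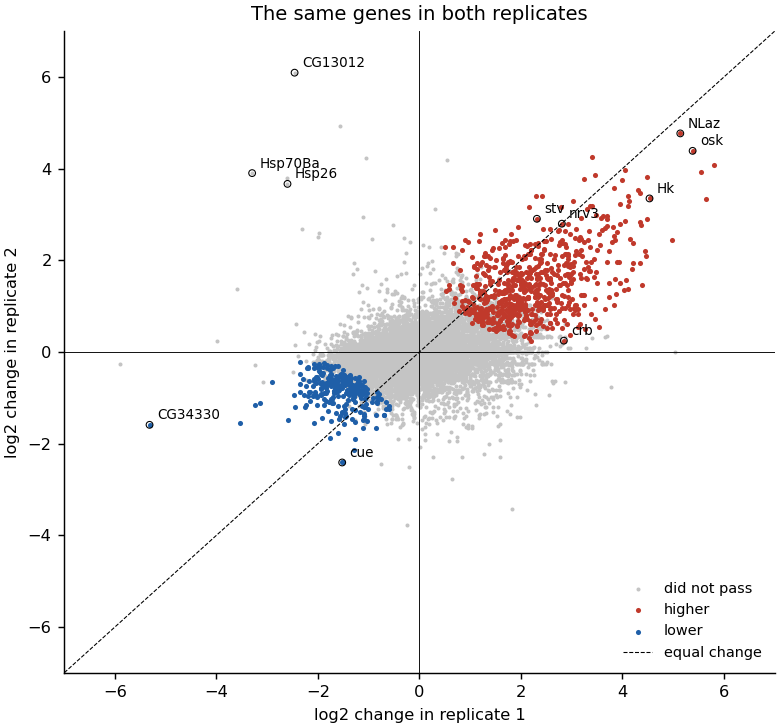
Log2 change of ElavWT minus untreated cells in replicate 1 (horizontal) against replicate 2 (vertical), 1 point per gene, with the genes that rose in red and fell in blue and a dashed line of equal change. Hsp70Ba, Hsp26 and CG13012 lie at the upper left, with opposite changes, and the called genes spread further along the replicate 1 axis.

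Genes were split into classes by their mean over the 4 libraries, which includes the ElavWT level, so that the class of a gene depends in part on its change. Of 1635 genes with a mean of 3 to 10 CPM 15.5% rose and 0.489% fell, and of 2257 genes with 30 to 100 CPM 4.48% rose and 5.27% fell. In replicate 1 the median change went from 1.15 for genes of 1 to 3 CPM to -0.78 for those over 300 CPM, and in replicate 2 from 0.18 to -0.14. Elav lengthens 3′ UTRs in neurons, and genes were also split by the annotated length: 16.4% of 324 genes with an annotated 3′ UTR over 3000 bases rose and 0 fell, against 6.60% and 3.46% of 2743 genes with 300 to 1000 bases. This difference came with replicate 1, in which the median change of the long class was 1.05, against 0.02 in replicate 2. Gene span showed the same, with medians of 1.05 and 0.00 in the 644 genes over 30000 bases, of which 16% rose. Of the genes averaging 10 CPM or more, 17.8% of the 230 with a 3′ UTR over 3000 bases rose against 4.64% of the 1962 with 300 to 1000 bases. Under 10 CPM the shares were 12.8% of 94 and 11.5% of 781. In the first of these classes the median change was 0.73 in replicate 1 and -0.05 in replicate 2.

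**Figure D5:**
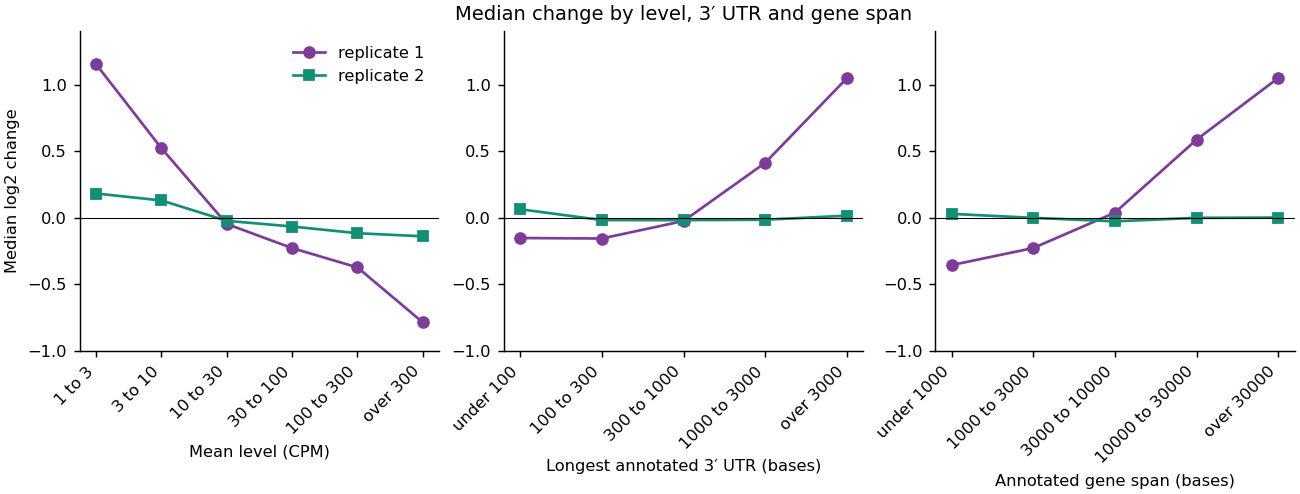
Median log2 change of ElavWT minus untreated cells in classes of mean level (CPM), longest annotated 3′ UTR and annotated gene span (bases), in replicate 1 (purple) and replicate 2 (green). The level classes are cut on a mean that includes ElavWT. In replicate 1 the medians run from 1.15 to -0.78 over these classes and reach 1.05 in the class of longest 3′ UTRs, while in replicate 2 they stay near 0.

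ElavWT cells were also set against the cells that received the other wild-type family members. In the same fit, 37 of 8771 genes (0.422%) differed between ElavWT and the mean of FneWT and Rbp9WT, 11 higher (0.125%) and 26 lower (0.296%). Of the 37, 18 were also higher than in untreated cells, against 7.84% of all genes tested. Of these 18, 9 lay above the mean of FneWT and Rbp9WT and 9 below it. Both contrasts use the same ElavWT libraries, so the calls are not independent. The number was unstable: it was 0 without the replicate term or without a filter on low values, 4 without either FneWT library, and 129 and 149 without untreated replicate 1 or 2. nrv3 was 1 of the 37: at 66.0 and 27.1 CPM in ElavWT cells it stood above untreated cells but below FneWT (137 and 57.5 CPM) and Rbp9WT (196 and 90.8 CPM) in each replicate, by 1.22 ± 0.22 (adjusted p = 0.0220). NLaz stood above them, at 47.8 and 21.5 CPM against 11.1 and 4.18 in FneWT and 15.3 and 7.37 in Rbp9WT cells (1.91 ± 0.31, adjusted p = 0.0105). Both calls were lost without FneWT replicate 1 or 2, nrv3 at an adjusted p of 0.0591 and 0.124 and NLaz at 0.0551 and 0.0804, and that of nrv3 also without ElavWT replicate 2 (0.132). Calls kept in all 6 fits that left out 1 transfected library were those of Pebp1, a phosphatidylethanolamine-binding protein gene, and CG33217. Pebp1 was at 6.77 and 4.69 CPM in ElavWT against 28.8 and 15.8 in FneWT and 37.0 and 22.7 CPM in Rbp9WT cells (-1.84 ± 0.26, adjusted p = 0.00571), and at 8.13 and 7.05 CPM in untreated cells. A gene that missed the threshold in this contrast is not shown to be equal in the groups.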

How the data were processed

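Libraries of mRNA 3′ ends were made from 2 ug of total RNA per sample by a custom protocol, per the labels' protocols. The authors deposited CPM per gene for 13777 genes; the submitters' processing notes name the build dm6, and aligner, counter and use of strand were not given in the sources used here. Dividing by the CPM worth of 1 read made 100% of values whole within 0.01 of a read. Of the genes, 13684 matched the Ensembl BDGP6 annotation, and 4553 of the 8771 tested (51.9%) overlap another annotated gene. No table column was left unmapped.

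The CPM were divided by median-ratio factors (0.755 to 1.33), and log2(CPM + 1) was fitted with limma 3.58.1 (trend, robust) in R 4.3.3 with group and replicate number as terms. The threshold was 0.05 on the p adjusted after Benjamini and Hochberg. The number pairs samples by the data alone: after subtracting group means, libraries with the same number correlated over all 6 pairings of groups. The r was lowest between ElavWT and untreated, the groups compared here (0.555), and reached 0.872 between FneWT and Rbp9WT. edgeR 4.0.16 and DESeq2 1.42.0 ran on recovered reads as alternatives. The fitting script was tested on simulated data. Tables and figures were made in Python 3.11.15 (scipy 1.17.1 for counting intervals, pandas 2.3.3, matplotlib 3.10.9).

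Named genes are the 12 largest rises and falls among passing genes whose groups do not overlap, the 6 of each with a mean of at least 100 CPM, up to 4 passing members per list, elav, fne and Rbp9, the 6 largest differences each way from FneWT and Rbp9WT, and the 4 genes with the largest opposite changes. Other genes named to complete a count of list members, and puc, Stat92E, Pebp1 and CG33217, were chosen after their values were seen. The comparison, gene lists and rules were chosen with earlier results of these data known.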

Additional observations from a re-analysis of the deposited data

Results flagged for a closer look

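Given here are genes for which the ElavWT libraries differed from the mean of FneWT and Rbp9WT in limma's test of that difference (adjusted p under 0.05), the 6 largest differences each way. A difference from that mean is not one from each of the 2 groups: the ElavWT libraries of CG6044, Gr5a, Rab9D and swi2 overlapped those of the other proteins. Among those higher in ElavWT, CG1648 lay above by 2.31 on the log2 scale, at 33.7 and 9.16 CPM against 0.996 to 7.33 CPM in the other transfected libraries, and Gr5a, a gustatory receptor gene for trehalose, by 2.12, at 49.5 and 15.1 against 2.37 to 16.4 CPM. CG5418 (2.35), CG6044 (2.13), lncRNA:CR45564 (2.06) and Rab9D, of the Rab GTPases (2.03), were the other 4. Of these, CG5418 and Rab9D had no read in untreated cells. CG5418 lay at 17.6 and 1.49 CPM in ElavWT cells (125 and 7 reads), and its call against untreated cells was lost without ElavWT replicate 1 (adjusted p = 0.165) or untreated replicate 1 (0.0696). Rab9D lay at 26.1 and 5.33 CPM (185 and 25 reads), at least 126-fold above a floor of 3 reads over the untreated group.

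Among those lower, CG13694 differed by -2.38, CG8745 by -2.35, CG6785 by -2.25, asRNA:CR45600 by -2.24, swi2 by -2.21 and link by -2.01. CG13694, at 3.67 and 1.28 CPM, lay under every FneWT and Rbp9WT library (11 to 34.8 CPM) and over both untreated ones (0 and 0.147 CPM). All 12 calls were lost in at least 1 fit without a FneWT library, and the cause was not tested.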

How the results depend on the processing

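The main fit, which has the replicate number as a term, called 948 genes (688 higher, 260 lower) against untreated cells and 37 against FneWT and Rbp9WT. No named gene that passed changed direction under any alternative run; 5 that did not pass did. Under edgeR and DESeq2 with the replicate block, Hsp70Ba (0.30 in the main fit) was at -2.05 and -2.03, Hsp70Bc (0.59) at -1.66 and -1.63 and Hsp26 (0.53) at -1.54 and -1.50, and without the block Hsp70Ba was at -0.46 and -0.41, Hsp70Bc at -0.71 and -0.66 and CG13012 (1.82) at -1.05 and -1.01. Leaving out 1 library at a time gave -3.56 to 4.15 for Hsp70Ba, -3.14 to 4.30 for Hsp70Bc, -3.04 to 4.09 for Hsp26, -1.83 to 5.45 for CG13012 and -0.49 to 0.83 for Rbp9. The medians of 19 of 43 gene lists changed sign in at least 1 alternative, 16 of them within 0.3 of 0 in the main fit; that of the heat shock genes went from 0.55 to -0.37 in edgeR and -1.14 without untreated replicate 2. Without the replicate block limma called 0, 0 and 0 genes against untreated cells (617 at an unadjusted p under 0.05) and 0 against the other proteins (123), edgeR likewise 0 of each (753 and 110), and DESeq2 265 (249 higher, 16 lower) and 3. With the block, edgeR called 423 lower genes and DESeq2 74 against the other proteins. The lower genes numbered 90 with the CPM as deposited, 85 without rRNA-named genes (19 against the other proteins) and 468 with TMM factors. The 4 libraries alone gave 482 calls (358 higher, 124 lower). A pseudocount of 0.25 gave 15 calls against the other proteins, and one of 5 gave 451 higher genes and 22. Without a filter 545 genes were called (73 lower) and 0 against the other proteins (1273 unadjusted), with a mean of at least 5 CPM 613 (413 higher) and 12, with at least 1 CPM in untreated cells 546 (362 higher) and 9, and without the robust option 21 against the other proteins. Leaving out 1 library at a time gave 307 to 2694 calls, 274 to 1507 higher, 33 to 1187 lower and 4 to 149 against the other proteins: 307 without untreated replicate 1, 2694 without untreated replicate 2 and 443 without ElavWT replicate 1. Of the 688 higher calls 576 were kept under all 3 other scalings and 347 in the 4 libraries alone, and of the 260 lower calls 83 and 117. The cause of these differences was not tested. Both DESeq2 and edgeR without the block, and the fits without a FneWT or Rbp9WT library, were chosen after seeing the data. Depth limits the low genes: 3 reads were worth 0.208 to 0.639 CPM in the 4 libraries.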

Other observations

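Genes of chromosome 4, the small autosome, most of which lie in a heterochromatic environment, were counted apart: 13 of the 83 tested were higher (15.7%, against 7.84% of all tested genes) and 0 lower, among them ey, toy and onecut, whose calls were lost without ElavWT replicate 1 or untreated replicate 1, and that of onecut also without ElavWT replicate 2 (adjusted p = 0.0894). The noncoding RNA roX2 of X chromosome dosage compensation (lncRNA:roX2) went from 97.6 and 113 to 51.2 and 70.3 CPM (-1.03 ± 0.27, adjusted p = 0.0192 in limma's test), and the sex determination gene Sxl from 14.2 and 8.22 to 62.3 and 14.7 CPM (1.20 ± 0.30, adjusted p = 0.0149); neither call was kept without ElavWT replicate 1 or untreated replicate 1.

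Of 260 genes that rose and had a tested gene within 2000 bases upstream on the same strand, 29 (11.2%) had an upstream neighbour that rose too, against 187 of 2766 (6.76%) over all tested genes with such a neighbour. Whether transcripts of the neighbour contributed to the counts was not tested. Of the 63 tested genes without a read in either untreated library, 44 rose, a share that the filter on the mean of the 4 libraries helps to set.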
